A study of Homo sapiens with 191 samples.

Results

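Broad accessible peaks of unstained GM12878 cells, those to which the peak caller gave 3 or more summits in the deposited list, were examined by single-cell ATAC-seq. ATAC-seq marks accessible chromatin by where the Tn5 transposase can insert. GM12878 is a B lymphoblastoid line, immortalised with Epstein-Barr virus. Its cells were fixed, permeabilized, transposed in bulk, not stained with antibody, and sorted singly into wells. Of them, 96 libraries of plate 1 and 95 of plate 2 are considered, and their labels give no second group. The list holds 50000 regions of 1 fixed width, each centred on a summit called on the pooled cells. A running number in each name marks the called peak, and a letter marks the summit within it. Broad peaks were chosen by this measured feature, a number carried by 3 or more regions, and 1068 of 43851 called peaks (2.44%) met the rule with 3584 of 50000 regions (7.17%). The other peaks were 3633 with 2 listed summits and 39150 with 1. There is 1 pooled list, hence no replicate, no second group and no value per cell, and the depth is unknown. The shares and intervals below describe the regions of this list, the intervals cover counting error only, and they were not adjusted for the number of comparisons.

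Accessible chromatin is usually a short stretch freed of nucleosomes, such as the start of an active gene or an enhancer bound by transcription factors. At some loci several such stretches lie close together, and a peak caller joins them into a single wide peak with several local maxima. Wide accessible domains are known at highly active promoters, where regions on both sides of the transcription start site (TSS) are open, and at clustered enhancers of genes that define a cell type. In B cells such genes include those of antigen presentation and of signalling from the B cell receptor, which passes from membrane kinases through inositol phosphates and calcium to NF-kB and NFAT. As a check of the line, 8 of 10 B cell marker genes (such as MS4A1 and PAX5) had a region within 1 kb of a TSS. None of 4 T cell markers (0), none of 4 erythroid markers (0) and 1 of 4 myeloid markers had such a region. Over all protein-coding genes the share was 51.4% (10320 of 20090). In the longer gene lists described further on, 21 of 26 B cell identity genes had such a region. So did 8 of 24 T cell, 3 of 23 myeloid and 2 of 22 erythroid genes.

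Sequences are shown for the strongest listed summit of the 3 broad peaks with most summits, and for the weakest of a pair of them, to show what lies at both ends of the score range inside a single peak. They are the plus strand of GRCh37 around the summit, and for the strongest CD74 summit the 57 bases of that window outside annotated UTRs. Capitals mark matches to the consensus motifs described further on.
CD74 strongest summit, chr5:149792474-149792530, at the TSS: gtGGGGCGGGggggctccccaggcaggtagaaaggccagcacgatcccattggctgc
Peak nearest SMNDC1, strongest summit, chr10:112116419-112116539, intergenic: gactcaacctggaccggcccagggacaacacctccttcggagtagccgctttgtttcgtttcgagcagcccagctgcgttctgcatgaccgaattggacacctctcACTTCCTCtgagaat
Peak nearest SMNDC1, weakest summit, chr10:112113713-112113833, intergenic: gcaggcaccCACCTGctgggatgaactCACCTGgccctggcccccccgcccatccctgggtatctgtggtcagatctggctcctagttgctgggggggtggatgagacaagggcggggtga
VOPP1 strongest summit, chr7:55602157-55602277, intron: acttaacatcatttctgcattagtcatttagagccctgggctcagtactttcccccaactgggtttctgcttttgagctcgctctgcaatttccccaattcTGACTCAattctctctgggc
VOPP1 weakest summit, chr7:55605694-55605814, promoter: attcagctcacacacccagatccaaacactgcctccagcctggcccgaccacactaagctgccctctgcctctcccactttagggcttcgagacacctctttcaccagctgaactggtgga
The strongest summits held an SP/KLF match at CD74, a PU.1/SPIB match near SMNDC1 and an AP-1 match at VOPP1. The weakest summit of VOPP1 held no match in this window, and that near SMNDC1 held E2A matches.

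The broadest domain was that of CD74, the invariant chain that guides MHC class II molecules to peptide loading. Its 11 listed summits extended over 8556 bp (chr5:149785532-149794087, hg19), from exons and introns of the gene to 1305 bp beyond its TSS. In genomic order, the scores (-log10 of the q-value) were 85.8, 52.4, 95.0, 42.5, 74.9, 385.3, 133.5, 54.1, 1229.6, 89.4 and 27.2. The strongest lay 3 bp from the TSS, and the next strongest, inside the gene, stood at -2829 bp from it on the plus strand. An intergenic peak on chromosome 10 (chr10:112113523-112118653), whose nearest protein-coding TSS was that of SMNDC1 at 51783 bp from its strongest summit, had 8 listed summits. Their scores in genomic order were 27.2, 57.4, 104.4, 78.5, 861.8, 127.6, 34.7 and 33.1, so that a single summit in the interior stood far above the others. In VOPP1 (chr7:55599770-55606004), 7 summits scored 59.2, 626.9, 1141.5, 293.3, 80.3, 20.0 and 17.3. There the high summits lay in an intron 3170 bp from the TSS, while the 3 within 1 kb of a TSS scored 80.3, 20.0 and 17.3.

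**Figure D1:**
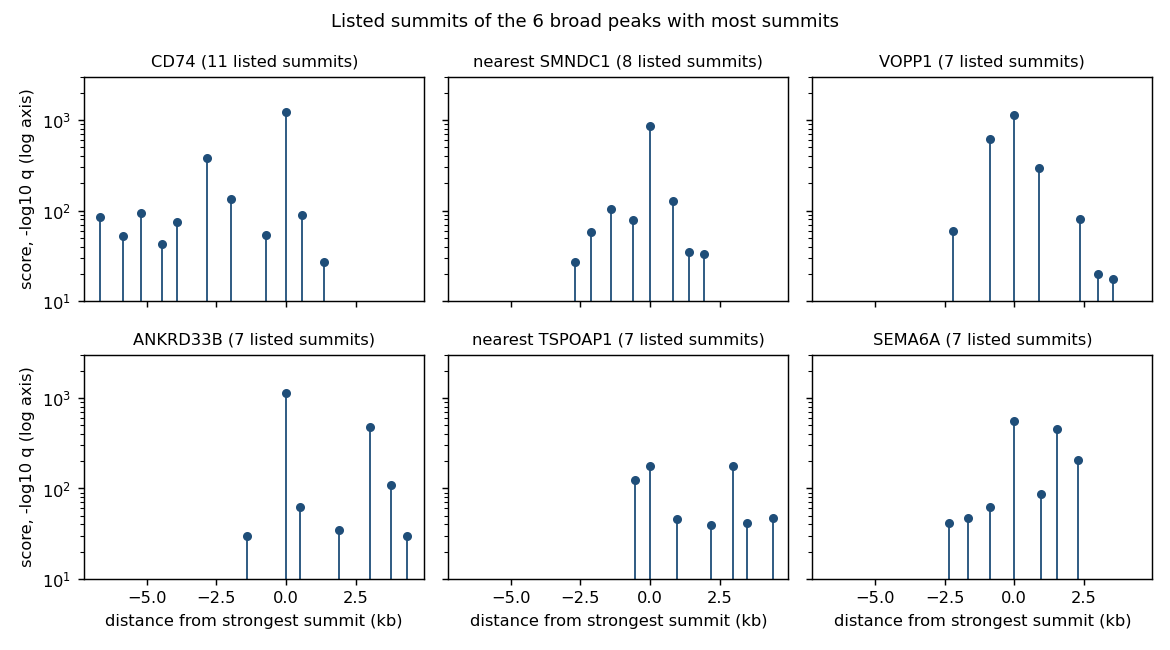
Score of each listed summit (-log10 q, log axis) against its distance in kb from the strongest summit of the same peak, for the 6 broad peaks with most listed summits. CD74 reaches to -6688 bp on the left of its strongest summit, while the peak nearest TSPOAP1 has 2 summits tied at 178.2.

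Other broad peaks with many summits had similarly uneven profiles. ANKRD33B held a pair of them on chromosome 5, in an intron with 7 summits (strongest 1136.0) and at its promoter with 6 summits (strongest 336.5). ST8SIA4, a sialyltransferase that makes polysialic acid, had 6 summits. Of these, an intronic summit at 1467.5 and a promoter summit 89 bp from the TSS at 1363.2 stood 2476 bp apart, and the other 4 scored between 71.3 and 201.3. SEMA6A, a transmembrane semaphorin, had 7 summits with high values of 554.4 at the TSS and 459.1 upstream of it. MARCKS, a substrate of protein kinase C at the membrane, had 7 summits, of which the strongest (770.3) lay in the intron and the summit 94 bp from the TSS scored 264.2. DUSP5, a nuclear phosphatase of ERK kinases, had 7 with the strongest at 186.6. ZC3H12D had 7 with the strongest at 169.9, and AKNA, an AT-hook protein, had 7 with the strongest at 476.0. Peaks outside the bodies of protein-coding genes were the 7 summits nearest TSPOAP1, the 7 nearest TRIM7 (2 bp from a TSS of LINC01962) and the 6 nearest CD46, 43115 bp from its TSS. That nearest TSPOAP1 counts as a promoter peak, with a summit 798 bp from its TSS and 12 bp from a TSS of the antisense RNA TSPOAP1-AS1. An intergenic summit 3751 bp from the TSPOAP1 TSS tied with this one at 178.2, and the first in genomic order set the class. GPR137B had 6 summits in an intron. By contrast, the 5 broad peaks with the strongest summit had 3 listed summits each and were all at promoters. These were C4orf46 and ETFDH (3842.6), HMGB2 (3747.1), TLE4 (3258.4), ATOX1 and G3BP1 (3189.7) and BMT2 (3068.4). At HMGB2, a chromatin protein of proliferating cells, the other summits scored 34.7 and 547.0.

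Most broad peaks were near the lower limit of the rule. Of 1068, 809 (75.7%) had 3 listed summits, 17.3% had 4, 43 (4.03%) had 5, 20 had 6, 9 had 7, and 1 each had 8 and 11. From the first to the last summit, the median span was 1563.5 bp (quartiles 1326 and 1991.75, range 1011 to 8055). The regions do not overlap, so 3 summits span at least 1002 bp. The median span rose from 1454 bp with 3 listed summits to 2231 bp with 4, 2919 bp with 5, 3874.5 bp with 6 and 4627 bp with 7. It was 1557 bp where the strongest summit was at a promoter, 1572 bp in introns and 1595 bp in intergenic DNA. Neighbouring listed summits were 706 bp apart at the median (quartiles 591 and 859, n = 2516 gaps, up to 1842), and 690 gaps (27.4%) were under 600 bp. Only 54 peaks spanned over 3000 bp.

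**Figure D2:**
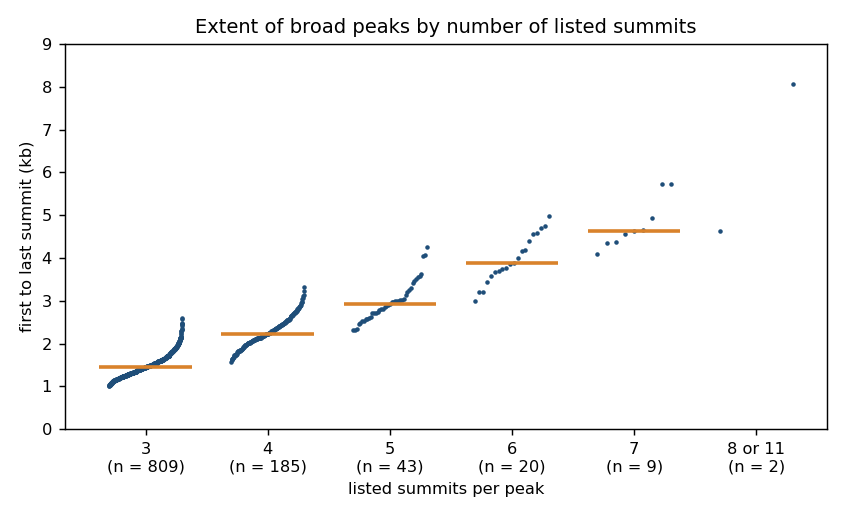
Distance in kb from the first to the last listed summit of each broad peak (points, sorted within each column) by number of listed summits, with the median of each column as a line. The column medians rise from 1454 bp with 3 to 4627 bp with 7 listed summits, and CD74 stands alone at 8055 bp.

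The list does not hold every summit that was called. By the last letter in each name, the broad peaks had at least 5051 summits, of which 3584 (71.0%) are listed. In 793 peaks (74.3%) at least 1 letter was skipped, and CD74 had at least 17. Whether the missing summits were removed for overlap or fell below the limit of the list was not tested. Counted by letter, 3437 peaks had 3 or more summits, including 393 with 1 and 1976 with 2 listed summits. Of the 39150 peaks with 1 listed summit, called single-summit peaks below, 7426 (19.0%) carried a letter and so had further called summits.

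Score and number of summits come from the same calls, so scores describe the choice and test nothing. The strongest summit of a broad peak had a median score of 297.8 (quartiles 149.5 and 620.0), against 159.7 with 2 listed summits and 27.2 with 1. The weakest listed summit had a median of 28.6, close to the typical single summit. The strongest exceeded the weakest by a median ratio of 9.15 (quartiles 4.29 and 19.6). Among the 809 peaks with 3 listed summits, the strongest was in the middle in 447 (55.3%, exact 95% interval 51.8 to 58.7), and otherwise at either end. Just inside and outside the rule, the promoter share was 61.2% with 3 and 57.1% with 2 listed summits, and the median strongest score was 279.8 and 159.7.

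Over all scores, broad peaks were found at promoters more often than peaks with 1 listed summit, but within score bands above 75 less often. By its strongest summit, a broad peak lay within 1 kb of a protein-coding TSS in 644 of 1068 cases (60.3%, 57.3 to 63.2), in an intron in 212 (19.9%), in intergenic DNA in 196 (18.4%) and in an exon in 16. For peaks with 1 listed summit the shares in promoters, introns and intergenic DNA were 26.2% (10261 of 39150), 33.4% and 37.7%. The promoter share was 34.1 percentage points higher in broad peaks (Newcombe 95% interval 31.1 to 37.0), and the intergenic share differed by -19.4 points (-21.6 to -16.9). Against peaks with 2 listed summits, at 57.1%, the difference was 3.16 points (-0.214 to 6.47) over all scores.

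Scores differed greatly between these groups, and the comparison was repeated within bands of the strongest summit score, which were chosen after seeing the data. Up to a score of 75, 38.4% of 86 broad peaks and 18.9% of 31880 single-summit peaks were at promoters, a difference of 19.5 points (9.87 to 30.0). In the third score quartile (30.1 to 74.9) the shares were 40.5% of 79 and 29.2%, or 11.3 points (1.16 to 22.4). Scores were not matched in these low groups. The medians were 56.6 in broad and 22.8 in single-summit peaks up to 75, and 57.4 and 44.2 in the third quartile. The single-summit promoter share itself rose from 12.1% in the first quartile to 29.2% in the third, so these groups cannot show the difference at equal score. From 75 to 150, the shares were 35.7% of broad and 45.0% of 3692 single-summit peaks, a difference of -9.33 points (-16.1 to -1.96). From 150 to 300 they were 49.1% of 267 and 63.3% of 1969, or -14.3 points (-20.6 to -7.92). From 300 to 600 they were 70.7% of 256 and 77.0% of 1052, or -6.29 points (-12.6 to -0.430). Above 600 they were 84.5% of 277 and 91.4% of 557, or -6.91 points (-12.1 to -2.30). Hence in all 4 bands above 75, which hold 982 of the 1068 broad peaks, the interval of the difference lay below 0. Broad peaks were also below peaks with 2 listed summits in 3 of these bands, by -10.2 points (-17.7 to -2.26) from 75 to 150, -13.1 (-19.9 to -6.23) from 150 to 300 and -6.67 (-11.9 to -2.02) above 600. From 300 to 600 this difference was -3.26 (-10.1 to 3.20), and up to 75 it was 4.70 (-5.34 to 15.7). Pooled over all peaks above the upper score quartile (74.9), the sign was again positive, with 62.2% of 982 against 58.2% of 7270 and a difference of 4.05 points (0.774 to 7.24), while against 2 listed summits it was -3.59 points (-7.15 to -0.0977). In that pool the median score was 328.5 in broad and 149.5 in single-summit peaks. The comparisons above this quartile further on therefore lessen the difference in score but do not remove it.

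**Figure D3:**
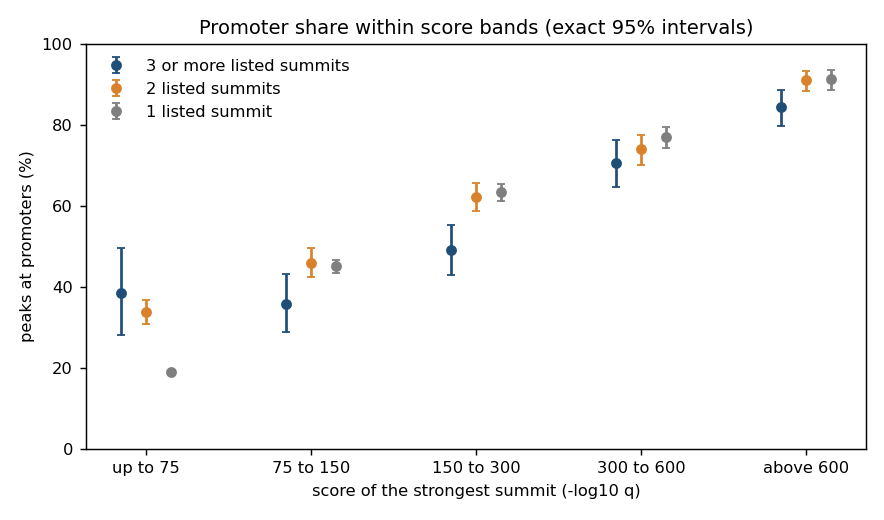
Share of peaks at promoters in percent (points, with exact 95% intervals) by score of the strongest summit (-log10 q), for peaks with 3 or more, 2 and 1 listed summits. From 75 upward the share rises with the score in all groups, and there the broad peaks lie below the single-summit peaks in each band, as in 49.1% against 63.3% from 150 to 300.

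At promoters, the additional summits flanked the TSS on both sides in most broad peaks. The 644 broad promoter peaks had 1496 other listed summits, of which 831 (55.5%, 53.0 to 58.1) were downstream of the TSS nearest to the strongest summit. They lay on both sides in 428 peaks (66.5%), on the downstream side alone in 140 (21.7%) and on the upstream side alone in 76 (11.8%). Their median distance from the TSS was 809 bp downstream and 841 bp upstream, where the non-overlap of regions sets a least distance from the strongest summit. In promoter peaks with 2 listed summits, the other summit was downstream in 1303 of 2076 (62.8%, 60.6 to 64.8). A TSS of any gene type on the opposite strand within 1 kb was present at 305 of 644 broad promoter peaks (47.4%) and at 27.9% of single-summit promoter peaks. Above the upper score quartile these shares were 49.1% (300 of 611) and 34.8% (1472 of 4229), a difference of 14.3 points (10.1 to 18.5), and against 2 listed summits it was 4.43 points (-0.162 to 9.01). Scores still differed above that quartile, where the single-summit share was itself higher than over all scores, and the part of score was not tested. In the 339 broad promoter peaks without such a TSS, 458 of 798 other summits (57.4%, 53.9 to 60.9) were downstream.

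**Figure D4:**
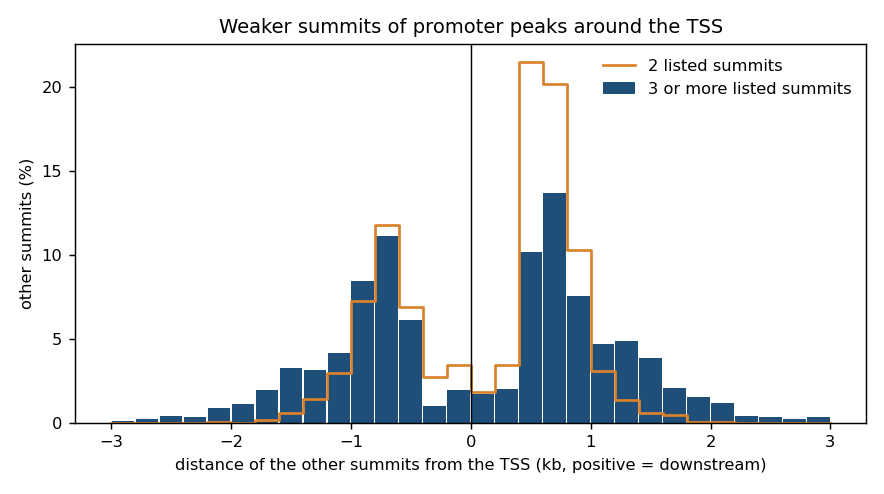
Distance in kb of the weaker listed summits from the TSS nearest to the strongest summit (positive, downstream), as percent of such summits in bins of 200 bp, for promoter peaks with 3 or more (bars, n = 1496) and 2 (line, n = 2076) listed summits. Both sides carry a hump, with 13.7% of those of broad peaks between 600 and 800 bp downstream and 11.1% at the same distance upstream. The 17 beyond 3000 bp are not drawn.

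In broad promoter peaks the strongest summit was near the start of the gene. It lay at a median of 86 bp from the TSS, and within 200 bp in 490 of 644 (76.1%). Among promoter peaks above the upper score quartile, it was within 200 bp in 76.8% of 611 broad and 86.4% of 4229 single-summit peaks, a difference of -9.64 points (-13.3 to -6.29). Over all 715 broad peaks with any summit within 1 kb of a TSS, the summit nearest to the TSS was the strongest in 423 (59.2%, 55.5 to 62.8). The mean of 1 over the number of summits, the share expected if each were as likely, was 30.7%. In 71 of these peaks the strongest summit was distal, as at VOPP1, MARCKS and BLK.

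Broad peaks whose strongest summit lay away from protein-coding promoters were closer to genes than single-summit ones. Class and distance to a TSS were taken from the strongest summit. In 71 broad peaks with a distal strongest summit, another summit lay within 1 kb of a protein-coding TSS. A distal peak with 1 listed summit cannot have this, and its part in the differences was not tested. Of 212 intronic broad peaks, 93 (43.9%) were within 5 kb of a TSS, against 27.9% of 13058 with 1 listed summit. Above the upper score quartile these were 43.1% of broad and 26.0% of 1292 single-summit peaks, a difference of 17.1 points (9.67 to 24.7). Of 196 intergenic broad peaks, 58 (29.6%) were within 1 kb of a TSS of another gene type, such as a long non-coding RNA, against 10.4% of 14771. Above the upper score quartile these were 31.4% of broad and 23.6% of 1652 single-summit peaks, a difference of 7.82 points (1.07 to 15.3), while peaks with 2 listed summits had 26.2%, a difference of 5.27 points (-2.31 to 13.4). Intergenic broad peaks over 50 kb from any protein-coding TSS numbered 63 (32.1%), against 52.7% of single-summit peaks. Above the upper score quartile these were 32.0% and 46.2%, a difference of -14.2 points (-21.1 to -6.63). Against 2 listed summits the differences were -6.63 points (-13.7 to 0.971) over all scores and -5.22 (-13.0 to 3.11) above that quartile. Broad peaks also lay closer to other peaks, and 638 (59.7%, 56.7 to 62.7) had a region of another called peak within 5 kb of 1 of their summits. This share was 49.8% with 2 and 39.0% with 1 listed summit, and 58.8%, 46.2% and 40.2% above the upper score quartile. A broad peak is longer, and that distance was taken from its nearest summit.

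The sequence under the strongest summit was richer in G and C in broad peaks, with a median of 60.1% (quartiles 52.7 and 66.5) against 50.3% (45.7 and 58.3) in single-summit peaks. The difference was smaller within class above the upper score quartile. In promoter peaks above the upper score quartile the medians were 64.1% and 64.3%, and in distal peaks 52.9% and 50.3%. Within broad promoter peaks, the other summits had a median of 55.1% against 63.9% at the strongest, so the flanking sites were less rich in G and C than the centre. In distal broad peaks the medians were 50.5% and 52.2%. For CpG dinucleotides per region, the medians at the strongest summit were 31 in broad and 8 in single-summit peaks, 42 and 38 at promoters, and 10 and 6 in distal peaks. Above the upper score quartile they were 34 and 32, 43 and 42 at promoters, and 10 and 8 in distal peaks.

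Consensus motifs were then searched on both strands of each whole region, as a description of letters and not of binding. Of 16 motifs, SP/KLF (GGGGCGGG, the GC box of many CpG-rich promoters) differed beyond the limits set for naming, with 19.2% of broad-peak regions and 12.9% of single-summit regions (ratio 1.49). EBF1 (CCCNNGGGA) was just inside them at 15.2% and 12.2% (ratio 1.248), and so was AP-1 (TGAGTCA) at 9.85% and 12.3% (ratio 0.804). Over all regions of the list, SP/KLF matched 14.5%. Regions of 1 peak share their source, so intervals over regions are too narrow. In promoter regions alone the order turned, with SP/KLF in 28.3% and 38.0% (ratio 0.744), while in distal regions it matched 7.81% and 4.03% (ratio 1.94).

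Flanking summits differ from central ones, so the strongest summit of each peak was also compared above the upper score quartile, with promoter and distal peaks apart, a comparison chosen after seeing the data. At promoters (611 broad and 4229 single-summit peaks), SP/KLF then showed no clear difference, at 48.9% and 46.4% (2.52 points, -1.70 to 6.75). The ETS consensus (CCGGAAGT), typical of promoters of widely expressed genes, was rarer in broad peaks, at 6.22% and 11.9% (-5.70 points, -7.64 to -3.30). NRF1 (GCGCATGCG), another motif of such promoters, was at 3.11% and 5.13% (-2.02 points, -3.34 to -0.214). The consensus of PU.1/SPIB (GAGGAAGT), factors of B and myeloid cells, was more frequent, at 6.06% and 3.83% (2.22 points, 0.480 to 4.47), as was RUNX (TGTGGTT) at 7.20% and 4.75% (2.45 points, 0.529 to 4.85). At distal sites (371 and 3041 peaks), PU.1/SPIB matched 11.1% and 7.53% (3.52 points, 0.550 to 7.23) and RUNX 22.6% and 17.8% (4.82 points, 0.613 to 9.53). E2A (CAGGTG) was at 50.1% and 44.2% there (5.97 points, 0.608 to 11.3). The intervals of IRF (AAANNGAAA), NF-kB (GGANTTTCC), AP-1 and CTCF (CCACNAGNG) included 0 in both classes. The lower bounds of PU.1/SPIB and RUNX were close to 0 in both. Scores were not matched above that quartile, and their part in these differences was not tested.

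Broad peaks were more frequent over genes of B cell receptor signalling, and of several other lists, than over all genes. Across the genome, 1194 of 20090 protein-coding genes (5.94%) had a summit of a broad peak over the gene or within 10 kb of it. Of these, 1068 genes had 1 broad peak, and of the rest 8 had 3, 4 had 4 and 1 had 6. In the list of B cell receptor signalling 9 of 24 genes (37.5%, exact 95% interval 18.8 to 59.4) had one. Genes of this list are long, with a median of 123.1 kb against 27.3 kb for all genes. Restricted to a summit within 1 kb of a TSS of the gene, the shares were 8 of 24 (33.3%) and 3.99% of all genes, and among genes with any listed promoter region 8 of 23 (34.8%, 16.4 to 57.3) and 7.77% of 10320. By the last measure, chemokine and homing receptors had 36.4% of 11 genes (10.9 to 69.2) and NF-kB 26.9% of 26 (11.6 to 47.8). Survival and proliferation control had 26.3% of 19, interferon and STAT factors 23.8% of 21 and housekeeping genes 18.2% of 22 (5.19 to 40.3). B cell identity had 9.52% of 21 and the cell cycle machinery 0 of 21. The lists were put together with earlier results of these data known, so their counts are a description.

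ITPR1, the inositol trisphosphate receptor that releases calcium from the endoplasmic reticulum, had 4 broad peaks with 16 summits. Its promoter peak, 27 bp from the TSS, scored 89.4, 1207.5, 25.7 and 25.7 in genomic order, and an intronic peak of 6 summits scored between 33.1 and 248.8. PLCG2, the phospholipase that makes inositol trisphosphate, had 3 broad peaks with 14 summits. The first, at a TSS inside the gene, scored 45.8, 233.5, 110.1 and 273.1. The next held a higher summit of 502.8 in an intron, 1813 bp from a TSS, and another of its summits lay 4 bp from a TSS. INPP5D, the lipid phosphatase SHIP1 that restrains the pathway, had 3 with 12 summits. The one at its promoter scored 24.3, 89.4, 55.8 and 21.4, and the strongest summit was in an intron 19900 bp from a TSS at 331.9. DAPP1, an adaptor that binds phosphoinositides, had a pair with strongest scores of 986.9 at the promoter and 257.6 in an intron. Genes of this list without a broad peak included CD81 and GRB2.

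In the NF-kB list 8 of 32 genes (25%, 11.5 to 43.4) had a broad peak. TNIP1, which binds A20 and restrains NF-kB, had 3, all at promoters, with strongest scores of 216.3, 135.5 and 207.7. TNFAIP8 had a pair in introns, and CFLAR, an inhibitor of caspase 8, had 1 with 5 summits and a strongest score of 257.6. TRAF1, an adaptor of TNF receptors, had a pair with strongest scores of 95.0 and 82.1. The nearest TSS to the summit of 95.0 was that of PHF19, at 1963 bp, and the other peak was at the TRAF1 promoter. BCL2A1, BCL2L1 and BIRC2 had none. Of the interferon and STAT factors, 6 of 23 (26.1%, 10.2 to 48.4) had a broad peak. IRF5 had a pair with 7 summits, IRF2 (strongest 634.5) and IRF1 (302.3) had 1 each at the promoter, as did STAT6 (159.7), and IRF3, IRF4 and IRF7 had none. Among genes of survival and proliferation control, 6 of 22 (27.3%, 10.7 to 50.2) had a broad peak. BCL2, which blocks apoptosis, had a pair with strongest scores of 352.7 and 108.2, and MYC had a pair with 300.1 and 83.9. CDK6 had 1 with 5 summits and CDKN2A 1 with 4, while BAK1, BAX and BBC3 had none.

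Chemokine and homing receptors had a broad peak in 4 of 16 genes (25%, 7.27 to 52.4). CCR6 had a pair, with 893.5 in an intron and 85.8 at the promoter, and CXCR3 had a pair, with 318.2 at the promoter and 529.8 at 4362 bp from it. S1PR1, the receptor by which lymphocytes leave lymphoid tissue, had 1 with 6 summits (20.0 to 216.3), and CXCR4 had 1 with 5 summits (25.7 to 89.4). Of the B cell identity genes 3 of 26 (11.5%, an interval of 2.45 to 30.2 that holds the share of all genes) had a broad peak, namely ETS1, BLK and POU2AF1, a coactivator of octamer factors, while BACH2, BLNK and BTK had none. MHC class II presentation had 2 of 16 genes (12.5%, 1.55 to 38.3), CD74 and its transactivator CIITA, whose intronic peak scored 28.6, 67.8 and 21.4. HLA-DMA, HLA-DMB and HLA-DOA had none. The germinal centre and plasma cell list also had 2 of 16 (12.5%, 1.55 to 38.3). These were JCHAIN, whose peak lay at the TSS of UTP3, and SDC1, with 3 low summits (21.4 to 24.3). For both lists the interval holds the share of all genes.

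Housekeeping genes had a broad peak in 5 of 24 cases (20.8%, 7.13 to 42.2). ACTB had 4 with 13 summits, EEF1A1 a pair with 1352.0 at the promoter and LDHA 1 with 432.7 and 397.1 at its outer summits. B2M, EEF2 and GAPDH had none. The cell cycle machinery, such as AURKA, AURKB and BUB1, had 0 of 24, for which the exact upper limit of 14.2% lies above the share of all genes. Of these genes, 21 of 24 did have a listed promoter region, with a median strongest score of 147.5, and in 13 of the 21 those peaks had 1 listed summit. For genes of B cell receptor signalling that median was 95.0, for chemokine and homing receptors 85.8 and for survival and proliferation control 108.2. It was 157.7 for the NF-kB list, 149.5 for interferon and STAT factors and 186.6 for housekeeping genes. Over all protein-coding genes it was 114.957. The part of score in the share of genes with a broad peak was not tested. Lists of other tissues had few or none, with upper limits of 14.2% to 21.9% that all lie above the share of all genes. There was 1 of 24 for T cells (GATA3, with a pair of broad peaks and a strongest score of 437.5) and 1 of 23 for myeloid cells (VCAN). Erythroid (0 of 22), hepatocyte (0 of 24) and neuronal genes (0 of 24) had none. Counting only peaks with 4 or more listed summits, B cell receptor signalling had 4 of 24 (16.7%) against 1.46% of all genes, and the NF-kB list 1 of 32 (3.13%).

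**Figure D5:**
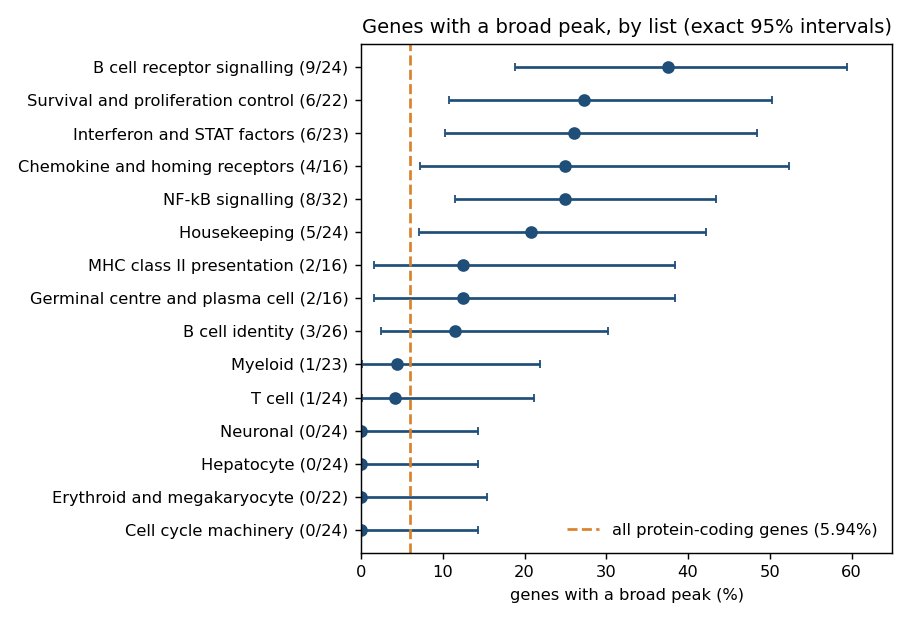
Share of genes with a broad peak over the gene or within 10 kb, in percent with exact 95% intervals, for each of 15 gene lists, with the share of all protein-coding genes as a dashed line at 5.94%. B cell receptor signalling is highest at 37.5%, and 4 lists, among them the cell cycle machinery, are at 0.

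SLC15A4, a transporter of histidine and peptides in endolysosomes, had more broad peaks than any other protein-coding gene, 6 with 20 summits (gene at chr12:129277739-129308503). In genomic order their strongest summits scored 28.6, 180.3, 432.7, 277.6, 259.8 and 579.3, so that the domains at its promoters exceeded those in its introns and the one beyond its end was weak. ITPR1, ACTB, HIVEP2 (a zinc finger factor) and the unnamed gene ENSG00000272980 had 4 each. ENSG00000272980 covers CCR6, whose pair of broad peaks is counted among its 4. ANKRD33B, PLCG2, VOPP1, INPP5D and ZMIZ1 had 3 each, with 16, 14, 13, 12 and 11 summits.

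Broad peaks were unevenly spread over chromosomes. They made up 3.35% of called peaks on chromosome 5 (3079 peaks, exact 95% interval 2.74 to 4.04) and 3.23% on chromosome 10, but 1.10% on chromosome 17 (11 of 1001, 0.550 to 1.96), 0.488% on chromosome 19 (5 of 1024, 0.159 to 1.14) and 0 of 382 on chromosome 22, for which the exact upper limit was 0.961%. The median strongest score of called peaks was 27.2 on chromosome 5, 37.8 on chromosome 19, 30.1 on chromosome 22, 31.6 on chromosome 10 and 36.2 on chromosome 17. Its part in these differences was not tested. Among peaks above the upper score quartile, 13.0% of 728 on chromosome 5, 12.6% of 593 on chromosome 4, 1.56% of 256 on chromosome 19 and 0 of 61 on chromosome 22 were broad. Chromosomes share 1 pooled library set, and copy number and mapping were not tested.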

How the data were processed

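The data are 1 deposited list of accessible regions for the pooled single-cell libraries of unstained GM12878. Per the study's methods, the authors aligned the reads to hg19, filtered them (mapping quality, duplicates, mitochondria), pooled the cells for summit calling, centred regions of equal size on the summits, and kept those of least q-value. In the deposited list 0 neighbouring regions overlap. MACS2, Picard 1.79 and Bowtie2 2.1.0 are named in the processing notes of the submitters. The deposited score is -log10 of the q-value given by the authors' peak caller. It takes 784 distinct values and was used only to order summits and to form score groups. Reads per cell are not in the list, so the depth behind each value is unknown.

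Regions with the same running number were taken as 1 called peak, represented by its strongest listed summit. Genes were GENCODE 44 mapped to GRCh37, on the autosomes and X (20090 protein-coding symbols). Promoter regions were those whose centre lay within 1 kb of any TSS of a protein-coding gene, and the others were exon, intron or intergenic. Shares have exact binomial and differences of shares Newcombe 95% intervals. No p-values were computed, since there are no replicates. The 3 regions holding N were left out of the motif search only. Score groups used quartiles over called peaks (20.0, 30.1 and 74.9) and bands at 75, 150, 300 and 600. The interval functions were tested on simulated data. Tools were pysam 0.24.0, statsmodels 0.14.6, scipy 1.17.1, pandas 2.3.3, numpy 2.4.6 and matplotlib 3.10.9 under Python 3.11.15.

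The members and the 15 gene lists and 16 motifs were chosen with earlier results of these data known. Peaks named are the 15 with most listed summits, the 5 with the strongest summit and the 5 with the longest span. Genes named are, in each list, up to 4 with a broad peak, by number of summits, and up to 3 without in alphabetical order, and the 10 genes with most broad peaks. Motifs named by rule have a ratio of shares of at least 1.25 or at most 0.8. The other motifs, and the genes UTP3, PHF19, TSPOAP1-AS1 and LINC01962, were named with their values known. Some genes and 1 sequence that the rules name are not reported here. The alternatives varied the promoter window, TSS set, flank, number of summits, letters, lowest score and motif window.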

Additional observations from a re-analysis of the deposited data

How the results depend on the processing

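The direction of the promoter comparison depended on how the scores were grouped. The difference between broad and single-summit peaks was 34.1 percentage points over all scores, 4.05 above the upper score quartile, 19.5 at scores up to 75, and then -9.33, -14.3, -6.29 and -6.91 in the bands from 75 to 150, 150 to 300, 300 to 600 and above 600. These groupings were chosen after seeing the data. The difference was 40.7 with any listed summit at a promoter, 37.4 against peaks without a letter, 28.1 with the outermost TSS of each gene, and 29.2 for peaks with letter c or later against peaks with 1 called summit. By that letter the broad peaks numbered 3437, and with 4 or more listed summits 259, with a median span of 2438 bp. The difference in median GC content was 9.78 points at the strongest summit and 5.41 with the mean over listed summits. The count of genes with a broad peak went from 1194 to 1900 with 50 kb on each side and to 293 with 4 or more listed summits. Motifs outside the ratio limits numbered 1 over all regions, 6 in the central part of each region, 10 at the strongest summit of each peak, 9 in promoter and 2 in distal regions, and 8 and 7 at the strongest summits of promoter and distal peaks above the upper score quartile, the last 4 counts chosen after seeing the data. The other 11 alternatives stayed within the interval of the reported value, or within 1.5 times of a count. No paired analysis was possible because all libraries are in 1 group and pooled in 1 list. The list gives no reads and ends at 50000 regions, so weak summits are missing, and unlisted summits limit every count of summits. No value here has a biological replicate.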
